A study of Mus musculus with 4 samples.

Results

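The sarcomere, the repeating contractile unit of striated muscle, and its Z-disc were followed through 48 genes in C2C12 cells. C2C12 is a mouse myoblast line, derived from skeletal muscle, whose cells stop dividing and build contractile fibres when serum is lowered. The genes are those of the thin and thick filaments, the M-band, the Z-disc and the proteins that assemble them, listed by name and called the members. A gene was taken as measured where the platform annotation tied a transcript cluster (the set of exon-array probes that covers one transcribed unit) to its symbol alone, and the brightest such cluster over the 4 arrays was used. By this rule 37 of the 48 genes were measured, out of 14806 genes with a cluster of their own and 16658 clusters in all. The other 11 were Actc1, Tnnt1, Myh7b, Myl3, Myl4, Myom3, Ttn, Neb, Flnc, Lmod2 and Lmod3, and they were not analysed here.

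Total RNA was hybridised to Affymetrix exon arrays, 2 for each condition. The differentiation arrays were from cultures moved to medium with 2% horse serum when fully confluent and collected 24 h after induction. For the growth arrays, cells were kept in 10% fetal bovine serum and harvested while 60 to 70% confluent. All 4 arrays are of the one cell line, with no transgene or drug named in the labels. Cell density and the kind and amount of serum differ together with the condition and cannot be told apart from differentiation. Both arrays of a condition are described as biological replicates, with nothing on separate cultures. The spread between these samples, on which the p-values rest in part, may therefore be technical.

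In a sarcomere, myosin of the thick filament pulls on actin of the thin filament. Troponin and tropomyosin on the thin filament switch this on when calcium binds troponin C. The Z-disc, built on alpha-actinin, anchors thin filaments of neighbouring sarcomeres, and the M-band holds thick filaments in register. Many of these proteins come in slow, fast and cardiac or embryonic isoforms from separate genes, and developing muscle is known to express several of them at once. MyoD and myogenin, the factors that drive muscle differentiation, bind DNA at E-boxes, and the sequence CAGCTG is an E-box known to be favoured by them.

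Most measured genes of the contractile apparatus had higher intensities after 24 h of differentiation. Of the 37, 19 passed the test upward and 0 passed it downward (limma, Benjamini-Hochberg adjusted p under 0.05 over all 16658 clusters), which is 51.4% higher. Over all clusters 8.64% passed upward and 7.52% downward. At an unadjusted p under 0.05 the members counted 22 higher and 0 lower, against 17.8% and 15.2% of all clusters. In a bulk RNA sample more muscle-like cells and more RNA of these genes per cell cannot be told apart. The median log2 change of the 37 was 0.70, against -0.011 over all clusters. Of the 19, 11 rose by at least 1 on the log2 scale. Both differentiation arrays lay above both growth arrays for 28 of the 37 genes (75.7%), against 30.8% of all clusters. They lay below for 3 genes (Tpm1, Pdlim5 and Cryab) and overlapped for 6. Intensities are linear PLIER values (PLIER is a model that weighs the probes of a cluster into a summary) with no detection call, and changes are differentiation minus growth in log2(intensity + 16) with the limma standard error (SE). This scale understates the change of dim genes. In limma the spread of each cluster is drawn toward a value pooled over all clusters. An SE or p-value is therefore not a measure of the gene's own spread alone. Intensities of different genes are not compared, because each depends on its own probes.

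The number that passed rested on the arrays used. It was 6 without differentiation replicate 1 (1.88% of all clusters passed upward), 5 without differentiation replicate 2 (1.83%), 10 without growth replicate 1 (3.14%) and 15 without growth replicate 2 (7.14%). An offset of 1 instead of 16 gave 8 (3.17%). The median change moved less and was 0.61 to 0.74 with an array left out. Actn3, Pdlim3, Tmod1, Unc45b and Myl6b kept their calls with any one array left out and in each other alternative run.

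**Figure D1:**
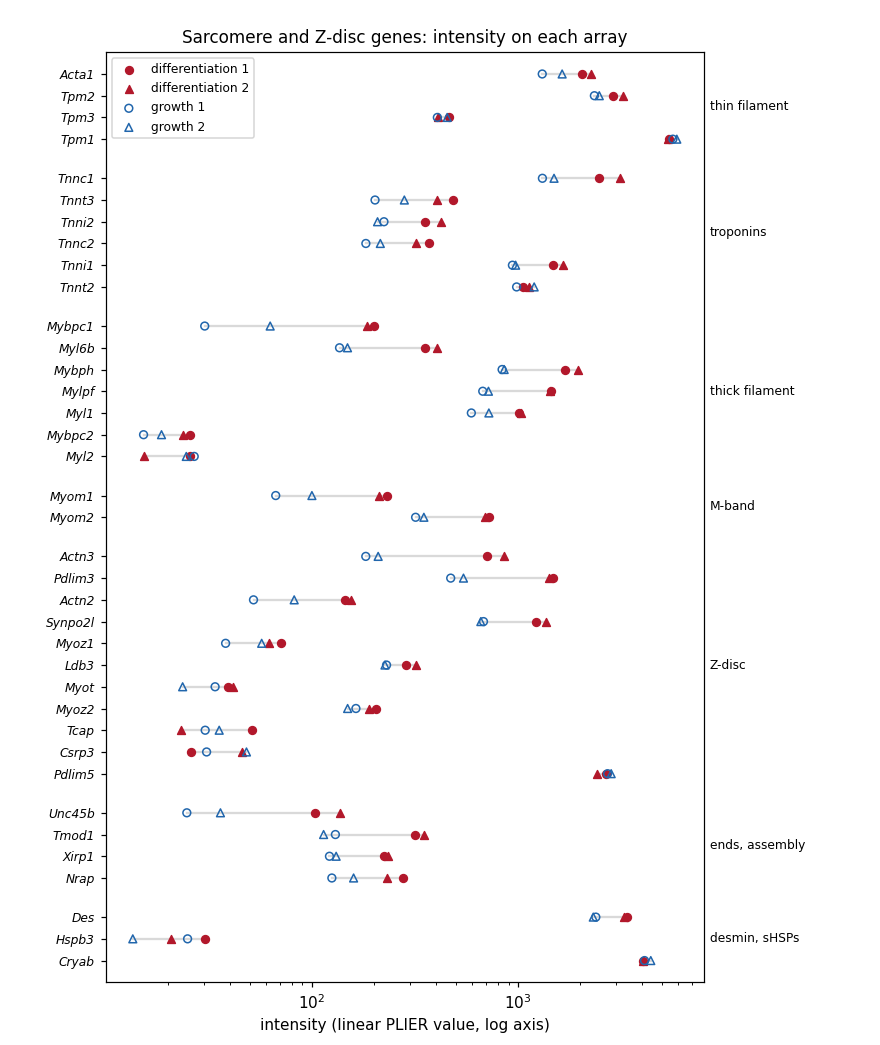
Intensity of each measured gene on the 4 arrays (log axis), grouped by role, with filled red symbols for differentiation and open blue symbols for growth. For 28 of the 37 genes both red symbols lie to the right of both blue ones, and Tpm1, Pdlim5 and Cryab have both red symbols on the left.

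Promoter sites are shown here because the members that passed share a direction. RefSeq windows of GRCm38.p6, 250 bases before to 50 after a transcription start, were found for 28 of the 37 measured genes (36 windows). The sequence CAGCTG, which reads the same on both strands, was present in 17 of these 36 windows (47.2%), against 16.3% of 32851 windows of all genes. It was found in 8 of the 16 windows of genes that rose and in 9 of the 20 windows of genes that did not pass, and no test was made. For the 7 genes that rose and held it, a site is given in 30-base stretches on the strand of the gene, with the motif in capitals.
Mybpc1 (chr10:88605222-88605251, minus strand): gagcacgaggcaCAGCTGaatttagaaagt
Mybph (chr1:134193357-134193386, plus strand): gacctgaccccaCAGCTGggaatggtttgc
Mylpf (chr7:127211545-127211574, plus strand): cttcctgggctcCAGCTGctgcaggcctcc
Nrap (chr19:56390037-56390066, minus strand): ttaaaaaccaacCAGCTGcggactccaaag
Pdlim3 (chr8:45885336-45885365, plus strand): ggcgactgcaccCAGCTGggagcgcctctg
Synpo2l (chr14:20664795-20664824, minus strand): attcCAGCTGcatgcttaagatcccacact
Tnni1 (chr1:135799341-135799370, plus strand): gggaaggaggggCAGCTGgaggggcagcgg

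Counted from the start as position 0, the motif began at -87 in Mybpc1, -79 in Mybph, -51 in Mylpf, -16 in Nrap, -139 in Pdlim3 and -246 in Synpo2l. Synpo2l held a further match at position 3, and the Tnni1 site lay at -68 from one start and -158 from another, as 2 windows cover it. The CArG box, which serum response factor binds, was present in 4 of the 36 windows (11.1%, against 1.63% of all windows). It was found in 3 of the 28 genes, Acta1, Ldb3 and Myom1, of which Myom1 alone passed the test. The 2 Ldb3 windows with a match cover the same site. The MEF2 box, bound by the Mef2 factors, was present in 4 windows (11.1%, against 1.86%), of Hspb3, Myoz2 and Synpo2l, of which Synpo2l alone passed. Both strands were searched, and 0 matches of one motif overlapped a match of another in these windows. A match describes letters in a window and not binding in these cells. The Ldb3 site, of a gene that did not pass, is not printed. The boxes of Acta1, which did not pass, and Myom1, which did, are shown side by side in capitals.
Acta1 (chr8:123894829-123894858, minus strand): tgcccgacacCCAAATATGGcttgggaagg
Myom1 (chr17:71019448-71019477, plus strand): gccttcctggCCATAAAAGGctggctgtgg

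Among the core proteins of the thin filament, actin and tropomyosin, no gene passed the test. Of 4 measured, 0 passed and 1 (Acta1) had an unadjusted p under 0.05, with a median change of 0.18. Over all clusters 8.64% passed upward, and 17.8% were higher at an unadjusted p under 0.05 (limma). With 4 genes, a count of 0 does not set them apart from that share. Acta1, the actin of adult skeletal muscle, had 2055 and 2249 on the differentiation arrays, against 1311 and 1638 on the growth arrays. The groups did not overlap, and the change was 0.55 ± 0.20 SE, adjusted p = 0.0945. Tpm2, the beta-tropomyosin, had 2885 and 3234 in differentiation, against 2347 and 2479 in growth (0.34 ± 0.18 SE, adjusted p = 0.233). Acta1 and Tpm2 passed in 1 alternative each, the variance prior that follows intensity.

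The remaining tropomyosins stayed closer to 0. Tpm1, the alpha-tropomyosin, which non-muscle cells also express from the same gene, had 5413 and 5329 in differentiation and 5638 and 5892 in growth. Its differentiation arrays were the lower ones, by less than the test could call (-0.10 ± 0.18 SE, adjusted p = 0.717). Tpm3, whose products include slow-fibre and non-muscle tropomyosin, had 460.4 and 410.04 in differentiation and 406 and 454 in growth, and the groups overlapped. Its change was 0.016 ± 0.18 SE with an interval of -0.41 to 0.44 (95%). A cluster covers all transcripts of a gene, so muscle and non-muscle forms of Tpm1 and Tpm3 were not separated.

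Of 6 measured troponins, the calcium switch of the thin filament, 5 rose (8.64% of all clusters did). They comprised fast and slow forms of troponin C and troponin I and the fast troponin T, with a median change over the 6 of 0.77. Tnnc1, the slow and cardiac troponin C, rose most, with 2481 and 3130.4 in differentiation, against 1314 and 1496 in growth (0.98 ± 0.20 SE, adjusted p = 0.0151). Its fast counterpart Tnnc2 had 369 and 320.3 in differentiation, against 183 and 215 in growth (0.75 ± 0.19 SE, adjusted p = 0.0349). For both genes the differentiation arrays were clear of the growth arrays.

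The inhibitory subunit was measured in both skeletal forms. Tnni1, the slow troponin I, had 1471 and 1653 in differentiation, against 939.8 and 974 in growth (0.70 ± 0.18 SE, adjusted p = 0.0374). Tnni2, the fast troponin I, had 353 and 421 in differentiation, against 224 and 208 in growth (0.79 ± 0.19 SE, adjusted p = 0.0268). Each had differentiation arrays well above growth arrays that were close to each other. Of the tropomyosin-binding subunit, the fast form Tnnt3 had 482 and 405 in differentiation, against 203 and 281 in growth (0.85 ± 0.22 SE, adjusted p = 0.0358).

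Tnnt2, the cardiac and embryonic troponin T, was the troponin that did not pass. It had 1053 and 1128 in differentiation and 985 and 1198 in growth, so that the growth arrays enclosed both differentiation arrays. Its change was 0.0044 ± 0.19 SE, with a 95% interval of -0.44 to 0.44, which leaves room for a change of either sign. In the RefSeq gene order Tnnt2 lies next but one to Tnni1 on chromosome 1, which rose, with 1 coding gene between them. Tnni2 and Tnnt3, both of which rose, are placed in the same way on chromosome 7. The 5 troponin calls depended on single arrays. With growth replicate 2 left out 2 remained (Tnnc1 and Tnnt3), and 0 remained with any other array left out or with an offset of 1. The changes of these 5 stayed between 0.61 and 1.15 with an array left out.

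**Figure D2:**
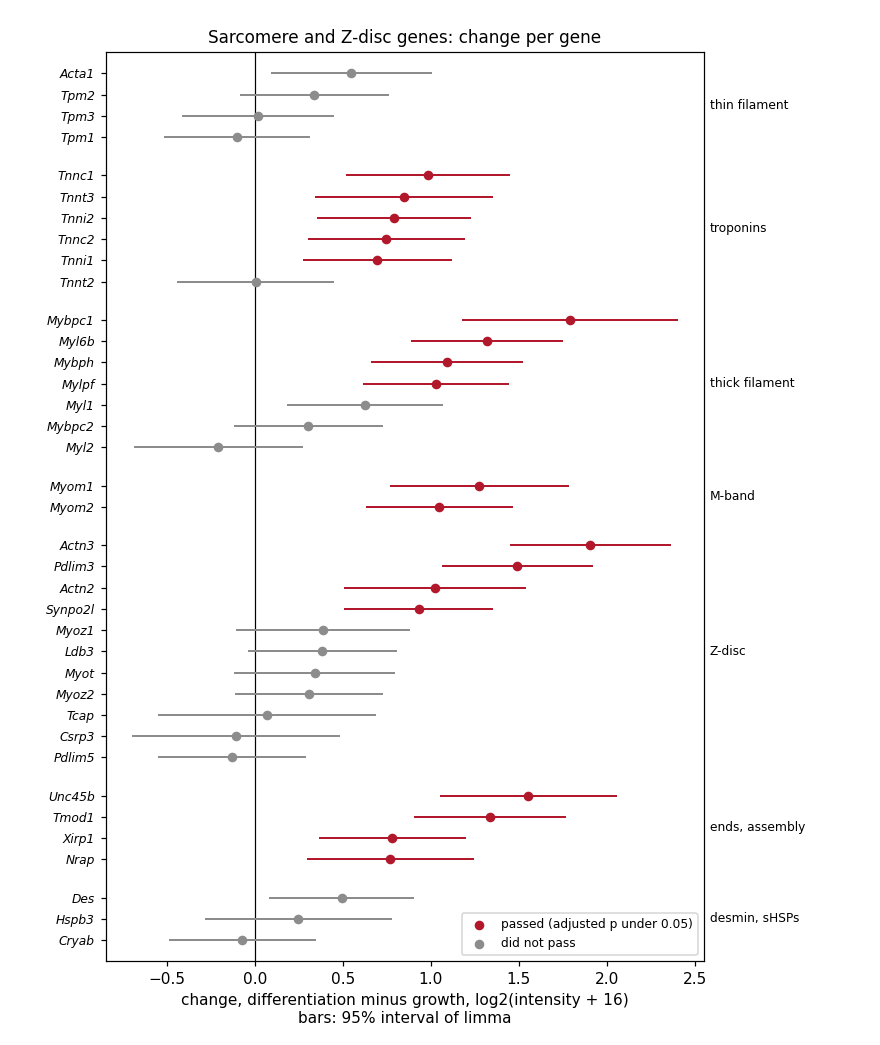
Change of each measured gene, differentiation minus growth in log2(intensity + 16), with its 95% interval from limma, in the same groups. Red marks the 19 genes that passed and grey the 18 that did not; the troponins other than Tnnt2, both M-band genes and the 4 genes of filament ends and assembly are red, and actin, tropomyosins, desmin and small heat-shock proteins are grey.

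Of 7 measured genes of the thick filament 4 rose (8.64% of all clusters did), with a median change of 1.03 over the 7. The 7 encode light chains and myosin-binding proteins, and no sarcomeric myosin heavy chain was measured. Mybpc1, the slow form of myosin-binding protein C, which clasps the thick filament, had 201 and 184 in differentiation, against 30.2 and 62.8 in growth. The growth arrays were dim and lay apart from each other, and the change of 1.79 ± 0.26 SE (adjusted p = 0.00381) had the widest interval of the genes that rose, 1.18 to 2.40. Mybph, a smaller relative of it, had 1695 and 1962 in differentiation, against 838 and 857 in growth (1.09 ± 0.18 SE, adjusted p = 0.0069). The fast form Mybpc2 was dim throughout, with 25.7 and 23.6 in differentiation and 15.3 and 18.7 in growth, and did not pass (0.30 ± 0.18 SE, adjusted p = 0.276).

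Myosin light chains bind the lever arm of myosin. Myl6b, an essential light chain of slow and embryonic muscle and non-muscle cells, had 354 and 407 in differentiation, against 136 and 149 in growth (1.32 ± 0.18 SE, adjusted p = 0.00303). Mylpf, the fast regulatory light chain, had 1449 and 1422 in differentiation, against 675 and 719 in growth (1.03 ± 0.18 SE, adjusted p = 0.0077). In both genes the arrays of a condition lay close together and far from those of the other. Myl1, the fast essential light chain, had 1009.5 and 1032 in differentiation, against 594 and 722 in growth, without overlap. It was the gene nearest to the threshold among those that did not pass (0.63 ± 0.19 SE, adjusted p = 0.0593), and it passed under quantile normalization, without the dimmest clusters and with the prior that follows intensity. Myl2, the slow and cardiac regulatory light chain, had 25.7 and 15.3 in differentiation and 26.9 and 24.6 in growth, all dim and overlapping (-0.21 ± 0.20 SE, adjusted p = 0.508).

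The thick-filament count was 4 without either growth array, 2 without differentiation replicate 1 (Myl6b and Mybph) and 1 without differentiation replicate 2 (Myl6b). Mybpc1 and Mylpf lost their calls without either differentiation array. Their changes were 1.40 to 2.17 and 0.98 to 1.07 with an array left out. With an offset of 1 the call of Mybpc1 was lost (adjusted p = 0.0532).

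Both measured M-band genes rose (8.64% of all clusters did). Myom1, myomesin, which cross-links thick filaments, had 232 and 211 in differentiation, against 66.8 and 100.1 in growth (1.28 ± 0.22 SE, adjusted p = 0.00723). Myom2, the myomesin relative known from fast and cardiac fibres, had 722 and 693 in differentiation, against 319 and 349.6 in growth (1.05 ± 0.18 SE, adjusted p = 0.00739). The arrays of the groups were well apart for both. Without either differentiation array both calls were lost, with changes of 0.98 to 1.52 over all leave-one-out fits, and Myom1 also lost its call with an offset of 1.

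At the Z-disc 4 of 11 measured genes rose (8.64% of all clusters did), among them both alpha-actinins of striated muscle. The median change was 0.38. Actn3, the alpha-actinin of fast fibres, had the largest change of all 37 genes, with 705 and 859 in differentiation, against 183 and 209.9 in growth (1.91 ± 0.19 SE, adjusted p = 0.000696). Its change was larger than that of 99.7% of all clusters. Actn2, the alpha-actinin of all striated fibres, had 145 and 155 in differentiation, against 52.2 and 82.2 in growth (1.02 ± 0.22 SE, adjusted p = 0.0192). Its growth arrays differed from each other by more than the differentiation arrays did, and it lost its call at an offset of 1 and in each leave-one-out fit other than that without growth replicate 2.

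Partners of actin and alpha-actinin also rose. Pdlim3, a PDZ and LIM domain protein known as ALP that binds alpha-actinin, had 1483 and 1421 in differentiation, against 472 and 544 in growth (1.49 ± 0.18 SE, adjusted p = 0.00172). Synpo2l, a synaptopodin-like Z-disc protein, had 1216 and 1374 in differentiation, against 680.3 and 661 in growth (0.93 ± 0.18 SE, adjusted p = 0.0126). Both had differentiation arrays far above growth arrays that lay close together. Pdlim3 kept its call in each alternative, and Synpo2l, like Actn2, was called in 1 of the 4 leave-one-out fits and not at an offset of 1.

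Of the members with PDZ and LIM domains, Ldb3 and Pdlim5 did not pass, and their differences from Pdlim3 were not tested. Ldb3, known as Cypher or ZASP, had 285 and 322 in differentiation, against 230.4 and 226 in growth, without overlap (0.38 ± 0.18 SE, adjusted p = 0.181). Pdlim5, known as ENH, had 2662 and 2413 in differentiation and 2719.8 and 2831 in growth, the lower values being in differentiation (-0.13 ± 0.18 SE, adjusted p = 0.642). A dimmer cluster of Pdlim5 gave a change of -0.15 ± 0.29 SE, so both clusters of this gene lay near 0.

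The calsarcins and other small Z-disc proteins did not pass. Myoz1, the calsarcin of fast fibres, had 70.99 and 61.9 in differentiation and 38.2 and 57.1 in growth (0.39 ± 0.21 SE, adjusted p = 0.24). Myoz2, the calsarcin of slow and cardiac fibres, had 206 and 189 in differentiation and 164 and 149 in growth (0.31 ± 0.18 SE, adjusted p = 0.272). In both the differentiation arrays lay just above the growth arrays. Myoz1 adjoins Synpo2l on chromosome 14, with 0 coding genes between them. Myot, myotilin, an actin cross-linker, had 39.3 and 41.3 in differentiation and 33.97 and 23.6 in growth (0.34 ± 0.19 SE, adjusted p = 0.263), again without overlap. Tcap, telethonin, which caps titin at the Z-disc, had 51.3 and 23.1 in differentiation and 30.4 and 35.6 in growth. Csrp3, muscle LIM protein, had 25.8 and 45.96 in differentiation and 30.9 and 48.2 in growth. For Tcap and Csrp3 the groups overlapped and the 2 differentiation arrays spanned all or nearly all of the range (0.068 ± 0.27 and -0.11 ± 0.25 SE).

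All 4 measured genes of filament ends and assembly rose (8.64% of all clusters did), with a median change of 1.06. Unc45b, the chaperone that folds muscle myosin, had 104 and 136 in differentiation, against 24.8 and 36.1 in growth (1.55 ± 0.21 SE, adjusted p = 0.0029). Tmod1, tropomodulin, which caps the pointed ends of thin filaments, had 315 and 349.6 in differentiation, against 130.2 and 114 in growth (1.34 ± 0.18 SE, adjusted p = 0.00285). These were 2 of the 5 genes whose calls held in every alternative.

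The others are proteins of early myofibrils and their attachment sites. Xirp1, the actin-binding protein Xin, had 224 and 233 in differentiation, against 122 and 131 in growth (0.78 ± 0.18 SE, adjusted p = 0.023). Nrap, a nebulin-related anchoring protein of assembling myofibrils, had 276 and 231 in differentiation, against 125 and 159.5 in growth (0.77 ± 0.20 SE, adjusted p = 0.0384). The arrays of the groups were apart for both. With an offset of 1 neither was called, and with an array left out the one call was that of Nrap without growth replicate 2.

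Desmin and the small heat-shock proteins did not pass, 0 of 3, with 1 (Des) at an unadjusted p under 0.05. The shares of all clusters were 8.64% passing upward and 17.8% higher at an unadjusted p under 0.05 (limma). So few genes cannot be set apart from these shares. Des, the muscle intermediate filament that links Z-discs, had 3377 and 3253 in differentiation, against 2386 and 2318 in growth. The arrays were well apart at a change of 0.49 ± 0.18 SE (adjusted p = 0.0953), and Des passed in 1 alternative, the prior that follows intensity. Cryab, alpha-B-crystallin, a chaperone of desmin, had 4054 and 4048 in differentiation and 4109.6 and 4406 in growth (-0.071 ± 0.18 SE, adjusted p = 0.806). Hspb3, a small heat-shock protein of muscle, was dim, with 30.2 and 20.8 in differentiation and 24.98 and 13.6 in growth, and the groups overlapped (0.25 ± 0.23 SE, adjusted p = 0.48).

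**Figure D3:**
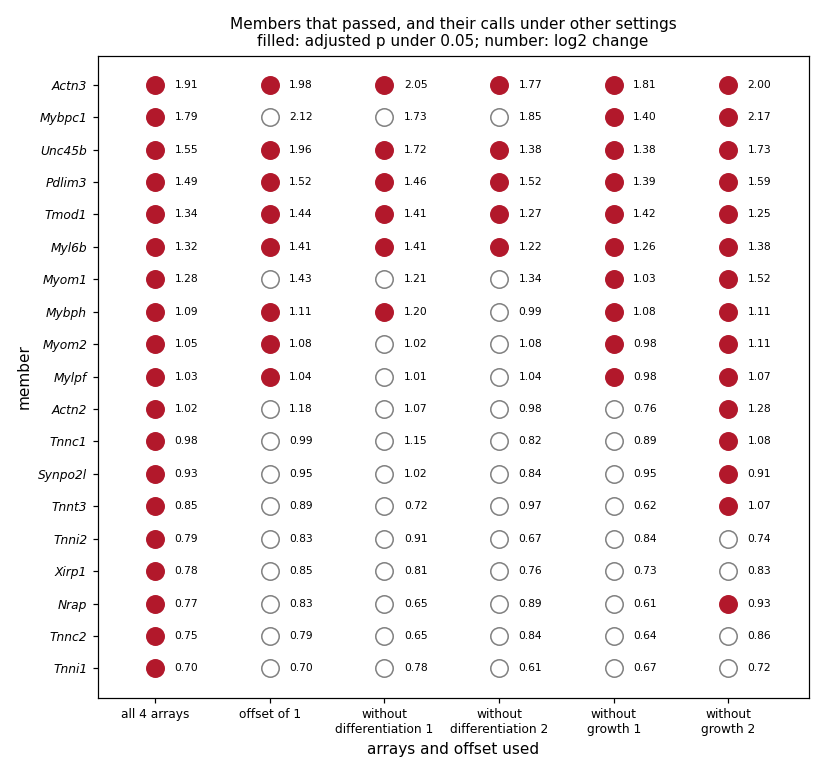
The 19 genes that passed (rows, by size of change) with all 4 arrays, with an offset of 1 and with each array left out. Filled circles mark an adjusted p under 0.05 and numbers give the log2 change; 5 rows are filled throughout, while the changes themselves stay positive in every column.

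Isoform classes are given by where each form is usually found in adult muscle. Of the 8 fast-fibre genes, all measured, 5 rose (Actn3, Mylpf, Tnnt3, Tnni2 and Tnnc2), with a median change of 0.77. Of 6 measured slow-fibre genes 3 rose (Mybpc1, Tnnc1 and Tnni1), with a median of 0.50. Among all clusters 8.64% passed upward. Differentiation arrays lay wholly above growth arrays for all 8 fast-fibre and 4 of the 6 slow-fibre genes, against 30.8% of all clusters. The difference between the classes was not tested, and 3 further slow-fibre genes were not analysed here. Tnnt2 was the sole measured member of the cardiac or embryonic class. The classes did not cover all members, so the medians depend on which genes were classed. Myl6b (1.32) and Myom2 (1.05), which both rose, were in neither the slow nor the fast class.

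Calls were rarer among dim clusters. With all clusters split into 4 equal bands of mean intensity, 2.71% of the dimmest band passed upward, against 7.59%, 13.0% and 11.3% of the next 3 bands in order of brightness. Of the members, 6 were in the dimmest band (Myl2, Mybpc2, Tcap, Csrp3, Myot and Hspb3), and 0 of them passed (limma; 0 also at an unadjusted p under 0.05). In the next bands 5 of 7, 8 of 10 and 6 of 14 passed. The 8 genes of the brightest band that did not pass were Tpm1, Cryab, Des, Tpm2, Pdlim5, Acta1, Tnnt2 and Myl1. Without the dimmest 25% of clusters 20 members passed, the 19 and Myl1.

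**Figure D4:**
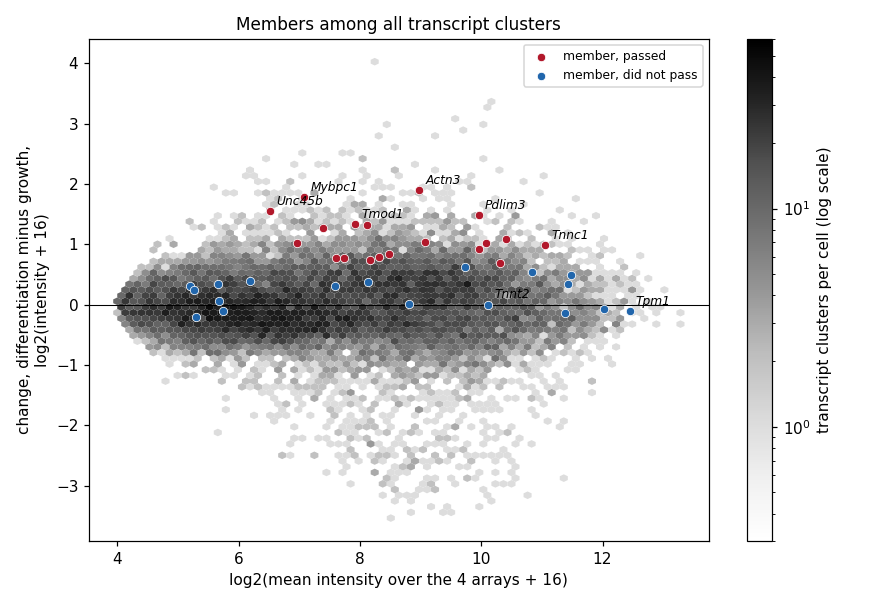
Change (differentiation minus growth, log2) against mean intensity over the 4 arrays for all 16658 clusters (grey, darker where more clusters fall) and the 37 members. Of the members, the 19 that passed (red) have changes of 0.70 to 1.91 and none lies in the dimmest 25% of clusters, which holds 6 of those that did not pass (blue).

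A further list held 52 sarcomere genes that are not members. The 22 not measured included the myosin heavy chain genes Myh1, Myh2, Myh3, Myh4, Myh6, Myh7, Myh8 and Myh13. Of 30 measured, 5 rose and 2 fell (limma, adjusted over all clusters), with a median change of 0.12. The list as a whole did not lean upward: 16 changes were above 0 and 14 below. At an unadjusted p under 0.05, 9 were higher and 9 lower. Both differentiation arrays lay above both growth arrays for 12 genes and below for 11. The share that rose was 16.7%, beside 8.64% of all clusters, and 7.52% of all clusters fell. The 5 were the sarcomeric methyltransferase gene Smyd1 (1.08 ± 0.20 SE, adjusted p = 0.011), the alpha-kinase gene Alpk3 (0.78 ± 0.18 SE, adjusted p = 0.0262), the ankyrin repeat gene Ankrd2 (0.73 ± 0.18 SE, adjusted p = 0.03), the small heat-shock gene Hspb2 (0.97 ± 0.24 SE, adjusted p = 0.0304) and Speg, a kinase of the myosin light chain kinase family (0.73 ± 0.20 SE, adjusted p = 0.0459). The call of Speg was lost with the replicate number as a block (limma, adjusted p = 0.0533). Lmod1, the leiomodin of smooth muscle (-1.10 ± 0.18 SE, adjusted p = 0.00675), and the small heat-shock gene Hspb6 (-0.97 ± 0.20 SE, adjusted p = 0.0149) fell. Without differentiation replicate 1 or 2, or without growth replicate 1, 0 of the list passed upward, where 1.88%, 1.83% and 3.14% of all clusters did. Those that passed downward numbered 1 without differentiation replicate 1 or growth replicate 1 and 0 without differentiation replicate 2.

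Widely expressed relatives of the members are the actins, alpha-actinins, myosins and LIM proteins of the general cytoskeleton. The smooth muscle actin genes Actg2 and Acta2 were also in this list, called the non-muscle relatives below. Of 20 measured, 1 rose and 1 fell (5.0% each way, beside 8.64% higher and 7.52% lower of all clusters), and 16 had a change below 0, with a median of -0.33. Pdlim4 rose, with 637 and 845 in differentiation, against 293 and 334 in growth (1.19 ± 0.21 SE, adjusted p = 0.00814), and lost its call without differentiation replicate 2 and with an offset of 1. The smooth muscle actin gene Actg2 fell, with 1325 and 1507 in differentiation, against 3638 and 3969.9 in growth (-1.42 ± 0.18 SE, adjusted p = 0.00219). The non-muscle alpha-actinins Actn1 and Actn4 had changes of -0.42 ± 0.19 and -0.42 ± 0.18 SE and did not pass, beside the risen Actn2 and Actn3. Tmod3, the widely expressed tropomodulin, had -0.61 ± 0.18 SE (adjusted p = 0.0564), beside the risen Tmod1. Unc45a, the general counterpart of Unc45b, had -0.21 ± 0.18 SE. The differences within these pairs were not tested.

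Markers of skeletal muscle moved with the members: Myod1, Myog, Chrna1, Ckm and Ryr1 all passed upward, with changes of 0.86 to 1.38 and summed intensities of 9702 and 10415 in differentiation, against 4915 and 5169 in growth. Of the smooth muscle markers, Cnn1 fell to 60.2 and 85.4 in differentiation, against 722 and 789 in growth (-3.13 ± 0.21 SE, adjusted p = 0.000165), a larger change than that of any member, and Tagln fell (-1.26 ± 0.19 SE, adjusted p = 0.0043). The other 3 of 5 did not pass. Of these, Smtn had a change of -0.61 ± 0.18 SE (limma, adjusted p = 0.0537), with both differentiation arrays below both growth arrays. At an unadjusted p under 0.05, 3 of the 5 were lower and 0 higher, beside 15.2% of all clusters lower. All 5 together had sums of 11060 and 10723 in differentiation, against 13528 and 16278 in growth. Such a sum follows the gene with the brightest probes: Acta2 alone had means of 7962 in differentiation and 8039 in growth (-0.0027 ± 0.20 SE), and among the skeletal muscle markers Chrna1 averaged 5340.5 in differentiation and 2845 in growth. Adipocyte markers summed to 589 and 513 in differentiation, against 902 and 887 in growth, but did not move together. Pparg and the dim Fabp4 (limma, adjusted p = 0.0494) passed downward, and 3 of 5 did not pass. Of those, Plin1 had a change of -0.52 ± 0.19 SE. Cidec (0.52 ± 0.20 SE) and Adipoq (0.42 ± 0.21 SE) went the other way, with both differentiation arrays above both growth arrays. None of the 4 measured cardiac markers passed (limma; 1 higher and 1 lower at an unadjusted p under 0.05), nor any of the 3 osteoblast markers (1 and 0). The part of these other markers in the members' changes was not tested. Median intensities of the arrays were 174 and 169.98 in differentiation, against 168 and 177 in growth, and arrays of a condition correlated at 0.984 or more across clusters, which are not independent replicates.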

How the data were processed

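Per the labels, the 4 arrays were processed with PLIER and the mouse build mm9. The deposited table holds 1 linear intensity per cluster and array, and the submitters' processing notes list no version, background step or normalization between arrays. Arrays carry no depth, and their number limits precision.

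Clusters were named from the platform annotation, where 14938 carried 1 symbol, 989 several and 731 none. Of the listed symbols 1 was updated through RefSeq (Murc to Cavin4). Values were transformed as log2(intensity + 16) with no filter and tested in limma 3.58.1 (R 4.3.3; lmFit, eBayes, two-sided, Benjamini-Hochberg over all clusters, threshold 0.05), differentiation against growth, without a block. The fit was tested on simulated data. Every measured member is named, and of 2 further lists the 4 lowest adjusted p values and counts of 5 or fewer; relatives set beside a member were picked after their values were seen. The members and lists were chosen with earlier results of these data known. The promoter motifs were chosen after the changes were seen. The alternatives tried were median centring, quantile normalization, 1 as the offset, dropping the dimmest 25% of clusters, a variance prior that follows intensity, a block for the replicate number, the fit without each array, and the mean over a gene's clusters. Without 1 array, its group's remaining array was taken to vary like the other condition.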

Additional observations from a re-analysis of the deposited data

How the results depend on the processing

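The 2 arrays per condition set the limit here, and the part of background in the intensities of dim genes was not measured. The count of members past the test stayed within 1.5 times its size under quantile normalization (20), median centring (19), the filter on dim clusters (20), the intensity trend (23), the mean over a gene's clusters (19) and the replicate block (19). With an offset of 1 it was 8, and with an array left out it was 5 to 15. No member passed downward in any of these. The median change was 0.61 to 0.78 over all alternatives. Clusters passing upward numbered 528 with an offset of 1, 2415 with an intensity trend and 305 to 1189 with an array left out, and downward 622, 1947 and 446 to 839. Other sarcomere genes passing upward were 1 with an offset of 1, 9 with the trend and 0 to 4 with an array left out. Downward they were 1, 8 and 0 to 2, and 6 without dim clusters. Non-muscle relatives passing upward were 0 with an offset of 1 and 0 to 1 with an array left out. Downward they were 2 without dim clusters, 8 with the trend and 1 with an array left out. The causes were not tested. The sign turned for 4 genes that had not passed, with an array left out: Tpm3 (-0.064 to 0.097), Tnnt2 (-0.13 to 0.14), Tcap (-0.32 to 0.46) and Csrp3 (-0.39 to 0.18). Same-numbered arrays did not deviate together (correlation -0.037), so the numbers were not taken as pairs. The replicate block gave 1369 clusters higher and 1195 lower and changed no call of a member. Of the genes of the 2 further lists that had risen or fallen, Speg alone lost its call (limma, adjusted p = 0.0533). Other sarcomere genes passing upward numbered 6 with the block. The cell type markers were not followed in the alternatives.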
